A study of Mus musculus with 8 samples.

Results

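A set of 10 genes that license, unwind and feed DNA synthesis was followed across whole hearts of mice under pressure overload: the 6 subunits of the replicative helicase (Mcm2, Mcm3, Mcm4, Mcm5, Mcm6 and Mcm7), its loading factor Cdc6, both subunits of S-phase ribonucleotide reductase (Rrm1 and Rrm2) and thymidylate synthase (Tyms). They were taken by gene symbol from a table of 17191 genes, all 10 were present, and all 10 passed the filter on low counts that left 12998 genes for testing. They were picked with the difference between S727A and WT hearts already known, so that difference is given for them as a description. Calls from tests over all genes are also printed for them, and nothing is read from those calls. The tested group was 4 heart libraries from mice whose STAT3 carries S727A, which replaces a phosphorylated serine by an alanine that cannot be phosphorylated. The other group was 4 heart libraries from wild-type (WT) mice. All 8 libraries came from hearts 4 weeks after transverse aortic constriction (TAC), a narrowing of the aorta that makes the ventricle pump against a higher pressure, and no unoperated heart is compared here. Age, strain, sex, the cells that carry the allele and the animal behind a library are not given in the labels, and every p-value below rests on the spread among 8 libraries, some of which may be technical.

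Before a cell copies its genome, the origin recognition complex, Cdc6 and Cdt1 place MCM rings on DNA, and in S phase these rings are switched on and unwind the double helix ahead of the polymerases. Ribonucleotide reductase turns ribonucleotides into deoxyribonucleotides, and thymidylate synthase makes the thymidine precursor that RNA does not need. Most of these genes are switched on by E2F factors when a cell leaves rest. Adult heart muscle cells rarely divide, so in a whole adult heart transcripts of this kind are usually scarce and can also come from fibroblasts, endothelial cells or blood-derived cells. In bulk tissue a larger number of cycling cells and more RNA in each cannot be told apart.

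Total counts per library ran from 10577619 to 13305124, and the 10 genes together took 939 to 2294 of them, so the values rest on few reads and counting error is part of their spread. The heart muscle markers Myh6, Myl2, Tnnt2, Tnni3, Actn2, Ryr2 and Pln summed to 58600 to 64400 CPM (counts scaled to library size) in S727A libraries and 55400 to 84100 CPM in WT libraries, as a heart should show. Some libraries stood apart. S727A 4 and WT 4 held 9 and 6 reads from 4 Y-linked genes, against 1940 to 2225 in each of the others, and WT 1 and WT 4 held 1436 and 731 reads from airway genes, against 1 to 27 in the others. On the first principal component of all genes (38.8% of the variance) S727A 4 (2.31) lay next to WT 3 (-0.3), away from S727A 1 to 3 (-26.8 to -22.57), WT 1 (30.73), WT 2 (30.5) and WT 4 (12.56). Stat3 itself averaged 164 ± 6.74 CPM in S727A hearts, against 201 ± 23.2 CPM in WT hearts (SD, n = 4 each), and since the mutation alters a codon, this level does not check the labels.

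The region around a gene's start is where E2F factors and the CCAAT-binding factor NF-Y are known to act on replication genes, so the start regions were read first. RefSeq windows of 300 bases (250 before and 50 from the transcript start, build GRCm38.p6) were found for 9 of the 10 genes, all but Mcm4. The E2F word was taken as TTTCCCGC, TTTCGCGC, TTTGCCGC or TTTGGCGC on either strand. It occurred in the windows of 5 of the 9 genes (Mcm3, Mcm5, Mcm6, Mcm7 and Cdc6), and in 4.6% of the 10342 tested genes that have a window. The short stretches below show it for Mcm3, Mcm7 and Cdc6, with the word in capitals, because these 3 differ in where it lies. Counted from the transcript start of the window, it lies 19 bases after it in Mcm3, 165 before and 16 after it in Mcm7, and 138 before it in Cdc6. For Mcm7 and Cdc6 that transcript start lies inside the RefSeq gene span given below, and so do their words before it. Another Mcm7 window, from a different transcript start, held no E2F word.
Mcm3, chr1:20820270-20820309, minus strand: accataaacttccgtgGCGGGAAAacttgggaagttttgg
Mcm7, chr5:138172025-138172064, minus strand: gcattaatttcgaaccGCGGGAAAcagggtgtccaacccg
Mcm7, chr5:138171844-138171883, minus strand: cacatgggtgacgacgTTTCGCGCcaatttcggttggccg
Cdc6, chr11:98907997-98908036, plus strand: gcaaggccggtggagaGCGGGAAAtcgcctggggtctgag
All stretches read 5′ to 3′ on the gene's strand, and GCGGGAAA is TTTCCCGC on the other strand. The second Mcm3 word, TTTGGCGC, began 38 bases after the start. The Mcm7 word after the start shares its last base with a CCAAT box.

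Whole windows are shown for Mcm5 and Mcm6, the helicase subunits with overlapping E2F words, and for Rrm2, which had the largest fold change of the 10 genes and no E2F word. Capitals mark E2F words and CCAAT boxes (CCAAT or its reverse complement ATTGG).
Mcm5, chr8:75109259-75109558, plus strand: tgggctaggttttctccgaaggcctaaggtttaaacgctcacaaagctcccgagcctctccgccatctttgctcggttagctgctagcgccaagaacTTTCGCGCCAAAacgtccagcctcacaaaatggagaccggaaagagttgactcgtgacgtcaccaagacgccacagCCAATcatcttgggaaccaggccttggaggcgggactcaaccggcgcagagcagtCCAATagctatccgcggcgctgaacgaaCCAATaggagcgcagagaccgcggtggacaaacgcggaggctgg
Mcm6, chr1:128359656-128359955, minus strand: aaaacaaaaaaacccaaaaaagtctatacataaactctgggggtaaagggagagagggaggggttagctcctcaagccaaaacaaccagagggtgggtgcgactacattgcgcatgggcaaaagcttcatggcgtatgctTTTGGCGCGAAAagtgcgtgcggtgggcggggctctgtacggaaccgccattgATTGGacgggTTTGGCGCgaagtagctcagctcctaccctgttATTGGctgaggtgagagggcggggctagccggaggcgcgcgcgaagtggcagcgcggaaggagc
Rrm2, chr12:24708004-24708303, plus strand: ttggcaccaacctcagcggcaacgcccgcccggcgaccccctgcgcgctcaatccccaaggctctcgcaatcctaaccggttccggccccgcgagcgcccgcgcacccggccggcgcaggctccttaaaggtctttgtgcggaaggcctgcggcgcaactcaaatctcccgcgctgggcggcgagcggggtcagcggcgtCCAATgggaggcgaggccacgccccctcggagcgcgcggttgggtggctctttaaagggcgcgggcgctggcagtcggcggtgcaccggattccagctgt
In Mcm5 the words TTTCGCGC and GCGCCAAA overlap at 153 and 149 bases before the start. In Mcm6 an overlapping pair begins 110 and 106 bases before the start, and TTTGGCGC stands alone 47 bases before it. CCAAT boxes occurred in the windows of 7 of the 9 genes (all but Tyms and Cdc6), and in 42.8% of tested genes. The Rrm2 box lies 50 bases before the start, and Mcm3, Mcm5 and one of the Mcm7 windows hold 3 each. GC boxes (GGGCGG, either strand) occurred in 6 of 9 and in 68.3% of tested genes. A STAT-type word, TTCNNNGAA, occurred in 1 of 9, Mcm5, as TTCTCCGAA 239 bases before the start, and in 8.2% of tested genes. TTTGAA, the core of an element of mitotic genes, occurred in 1 of 9, Mcm2, and in 14.2% of tested genes. A match is a description of the letters and not a binding site.

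The helicase genes are scattered over the genome (Mcm2 on chromosome 6, 88883474 to 88898780, Mcm3 on 1, 20802966 to 20820312, Mcm4 on 16, 15623897 to 15637400, Mcm5 on 8, 75109468 to 75128439, Mcm6 on 1, 128331575 to 128359705, and Mcm7 on 5, 138164583 to 138172111, RefSeq on GRCm38.p6). All 6 had a higher mean in S727A hearts, by 1.26- to 2.02-fold. Mcm5, part of the gate through which DNA enters the ring, had the largest fold of the 6. Its normalised counts were 12.8, 9.69, 12.0 and 7.92 CPM in S727A 1 to 4 and 4.5, 3.93, 7.32 and 5.06 CPM in WT 1 to 4. Every S727A library lay above every WT library, with WT 3 the highest WT library, and the log2 fold change was 1.01 ± 0.22 (SE, edgeR).

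Mcm2, which sits at the other side of that gate and also binds histones, was at 33.1, 18.2, 28.7 and 17.6 CPM in S727A 1 to 4 and 12.7, 13.1, 15.8 and 11.8 CPM in WT 1 to 4. S727A 1 and S727A 3 stood well above S727A 2 and S727A 4, which were close to WT 3, and no library crossed over. The log2 fold change was 0.87 ± 0.21 (SE), and 0.68 without S727A 1. Mcm7 was at 21.8, 14.6, 17.1 and 13.4 CPM in S727A hearts and 11.8, 10.5, 12.9 and 12.9 CPM in WT, also without overlap, with a log2 fold change of 0.48 ± 0.16 (SE). The transcribed region of Mcm7 also holds the microRNA genes Mir25, Mir93 and Mir106b, which these mRNA counts do not measure.

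Mcm3, Mcm4 and Mcm6 overlapped between the groups. Mcm3 was at 13.5, 10.3, 12.6 and 9.24 CPM in S727A hearts and 8.15, 6.83, 9.3 and 8.49 CPM in WT (log2 fold change 0.47 ± 0.16, SE), where only S727A 4 lay just under WT 3. Mcm6 was at 21.8, 13.5, 16.8 and 13.1 CPM in S727A hearts and 11.9, 12.6, 14.9 and 9.81 CPM in WT (0.40 ± 0.18, SE), and the highest S727A library, S727A 1, carried much of that difference: without it the log2 fold change was 0.23. Mcm4 was at 12.8, 14.1, 14.3 and 16.5 CPM in S727A hearts and 13.5, 10.1, 11.7 and 10.5 CPM in WT (0.33 ± 0.13, SE). In Mcm4 the order of the S727A libraries was the other way round, with S727A 4 highest and S727A 1 lowest and below WT 1.

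**Figure D1:**
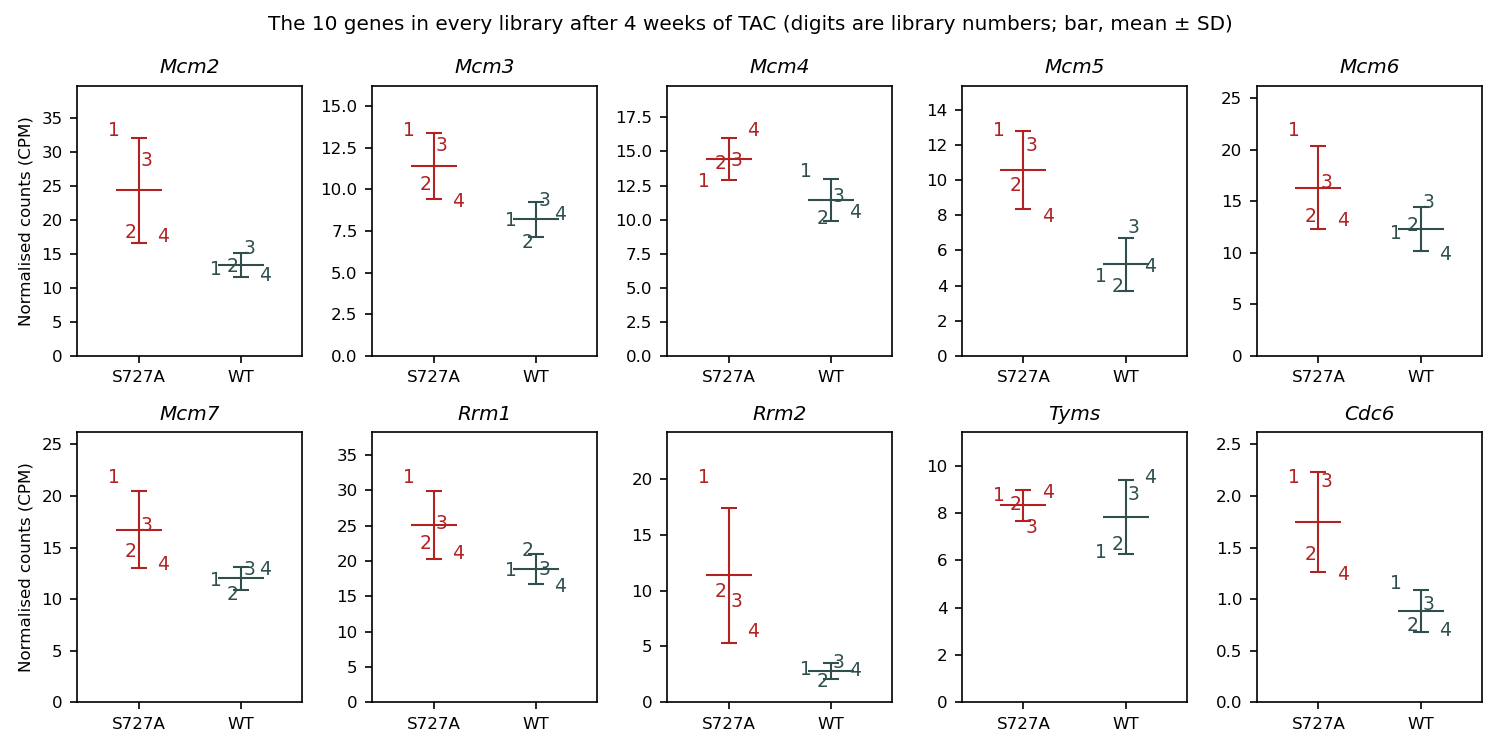
Normalised counts (CPM, y axis from 0) of the 10 genes in the 4 S727A libraries (red, left) and 4 WT libraries (dark, right) of each panel; each digit is a library and the bar is the group mean ± SD. Rrm2, Mcm2, Mcm5, Mcm7 and Cdc6 show no overlap between the groups, library 1 is the highest S727A library in 8 of 10 panels, and Tyms overlaps throughout.

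The 6 proteins work as a ring with 1 copy of each, so their transcript levels were set side by side in FPKM, which divides by gene length. In S727A hearts Mcm2 (7.28 ± 2.25 FPKM) and Mcm7 (7.14 ± 1.45 FPKM) were the most abundant, followed by Mcm6 (5.34 ± 1.32), Mcm4 (4.05 ± 0.486), Mcm3 (3.99 ± 0.654) and Mcm5 (3.73 ± 0.738 FPKM, SD, n = 4). In WT hearts the order was Mcm7 (5.1 ± 0.593 FPKM), Mcm6 (4.12 ± 0.744), Mcm2 (4.06 ± 0.566), Mcm4 (3.26 ± 0.418), Mcm3 (2.92 ± 0.398) and Mcm5 (1.86 ± 0.61 FPKM, SD, n = 4). In S727A hearts neighbours in this order lay within the larger of their SDs, except Mcm7 and Mcm6. In WT hearts only Mcm6 and Mcm2, and Mcm4 and Mcm3, lay that close, and Mcm5 stood below the rest. The summed level of the 6 was 38.51, 26.94, 34.35 and 26.33 FPKM in S727A 1 to 4 and 20.85, 19.17, 25.02 and 20.29 FPKM in WT 1 to 4.

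As a share of that sum, Mcm5 made up 11.8% ± 0.825 in S727A hearts, against 8.6% ± 1.78 in WT hearts (SD, n = 4), while WT 3 equalled the lowest S727A library at 10.9%. Mcm2 made up 22.73% ± 2.92 in S727A and 19.03% ± 1.29 in WT, with overlap, and Mcm7 22.6% ± 0.942 in S727A and 24.0% ± 2.24 in WT. Mcm4 had the most variable share among S727A libraries, with 9.2% in S727A 1 and 17.9% in S727A 4. Among WT libraries its share ran from 13.5% to 18.2%, and those of Mcm6 (SD 2.58) and Mcm7 (SD 2.24) varied more. The ring subunits were therefore not present in equal transcript amounts in either group. These shares were not tested.

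**Figure D2:**
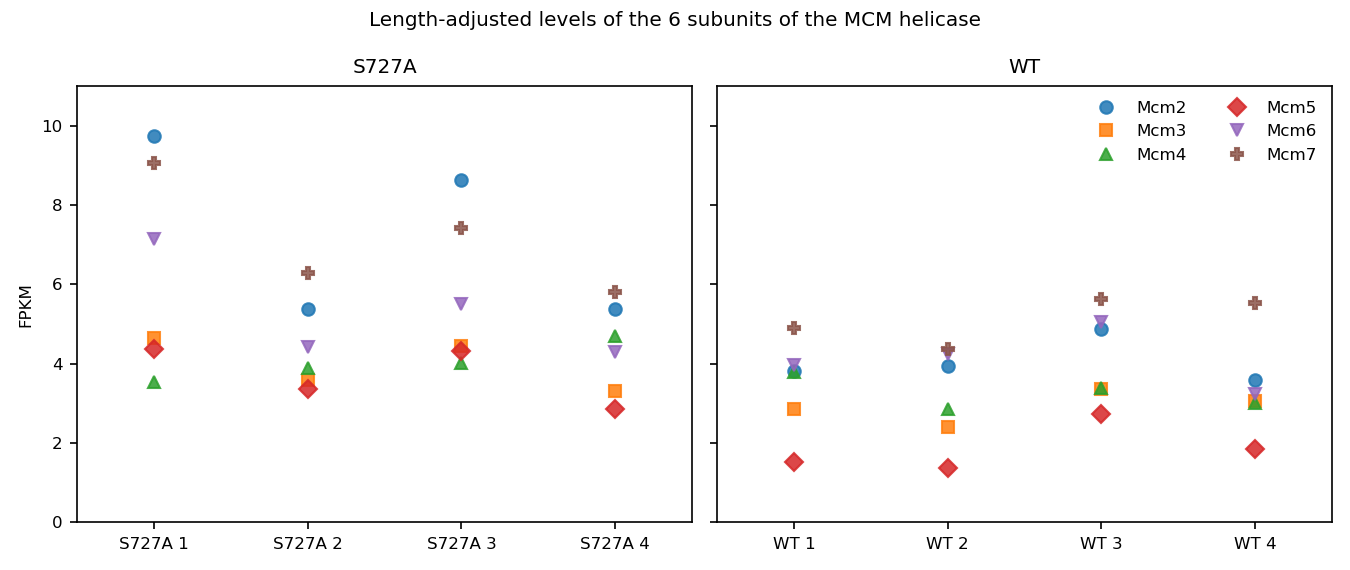
FPKM (y axis, from 0) of the 6 helicase subunits in each S727A library (left panel) and each WT library (right panel), with a symbol per gene. Mcm2 and Mcm7 lead in the S727A libraries, Mcm5 is the lowest symbol in every WT library, and WT 3 is the WT library with the highest sum at 25.02 FPKM.

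Cdc6 (chromosome 11, 98907709 to 98923942), the ATPase that brings MCM rings to origins, was the scarcest of the 10 genes. It had 28, 18, 24 and 16 counts in S727A 1 to 4 and 12, 8, 13 and 9 counts in WT 1 to 4. WT 2 and WT 4 lay under the filter's minimum count of 10, so Cdc6 passed the filter through its S727A libraries. The exact Poisson 95% interval was 9.15 to 25.98 for the 16 counts of S727A 4 and 6.92 to 22.23 for the 13 counts of WT 3, so these libraries could not be told apart by counting error alone. In CPM the lowest S727A library (1.24) was above the highest WT library (1.15), and the log2 fold change was 0.97 ± 0.31 (SE). Its partner Cdt1, from outside the 10 genes, was at 5.29, 4.13, 3.66 and 3.5 CPM in S727A hearts and 2.2, 1.97, 2.49 and 2.34 CPM in WT. The Cdt1 groups did not overlap, but this was short of the threshold (log2 fold change 0.88 ± 0.21 SE, edgeR adjusted p = 0.112). It passed in DESeq2 (adjusted p = 0.0365) and in edgeR without S727A 4 (adjusted p = 0.0404).

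Rrm2 (chromosome 12, 24708254 to 24714146), the small subunit of ribonucleotide reductase that carries the radical and is made in S phase, differed most between the groups. It was at 20.1, 9.93, 9.01 and 6.37 CPM in S727A 1 to 4 and 2.97, 1.87, 3.59 and 2.88 CPM in WT 1 to 4. Every S727A library exceeded every WT library, but S727A 1 held more than 3 times as much as S727A 4 (3.15-fold), and WT libraries differed by up to 1.92-fold. The log2 fold change was 1.99 ± 0.36 (SE), a 3.98-fold higher level in S727A, and it was 1.56 without S727A 1 and 2.19 without S727A 4.

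Rrm1 (chromosome 7, 102441695 to 102469771), the large subunit with the catalytic site, differed less. Its values were 31.8, 22.4, 25.3 and 21.0 CPM in S727A and 18.6, 21.5, 18.8 and 16.4 CPM in WT, a log2 fold change of 0.42 ± 0.14 (SE), and WT 2 lay above S727A 4. Per length, Rrm2 reached 117%, 82.4%, 66.1% and 56.4% of the Rrm1 level in S727A 1 to 4 and 29.8%, 16.2%, 35.5% and 32.8% in WT 1 to 4. The enzyme needs both subunits, and the transcript of the small one was the scarcer in every library except S727A 1.

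Rrm2b encodes the other small subunit, which p53 induces and which serves resting cells. It was at 27.6, 29.8, 34.9 and 31.0 CPM in S727A 1 to 4 and 42.3, 42.7, 32.9 and 35.1 CPM in WT 1 to 4, a log2 fold change of -0.31 ± 0.11 (SE) that did not pass (edgeR adjusted p = 0.194), with S727A 3 above WT 3. In WT hearts Rrm2b stood at 8.63 ± 1.01 FPKM and Rrm2 at 1.34 ± 0.35 FPKM, and in S727A hearts at 6.91 ± 0.737 and 5.27 ± 2.72 FPKM (SD, n = 4). Rrm2 was 151%, 69.9%, 54.2% and 42.6% of Rrm2b in S727A 1 to 4 and 14.7%, 9.22%, 22.9% and 17.2% in WT 1 to 4. S727A 1 was the only one of the 8 libraries in which the S-phase form exceeded the resting form.

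**Figure D3:**
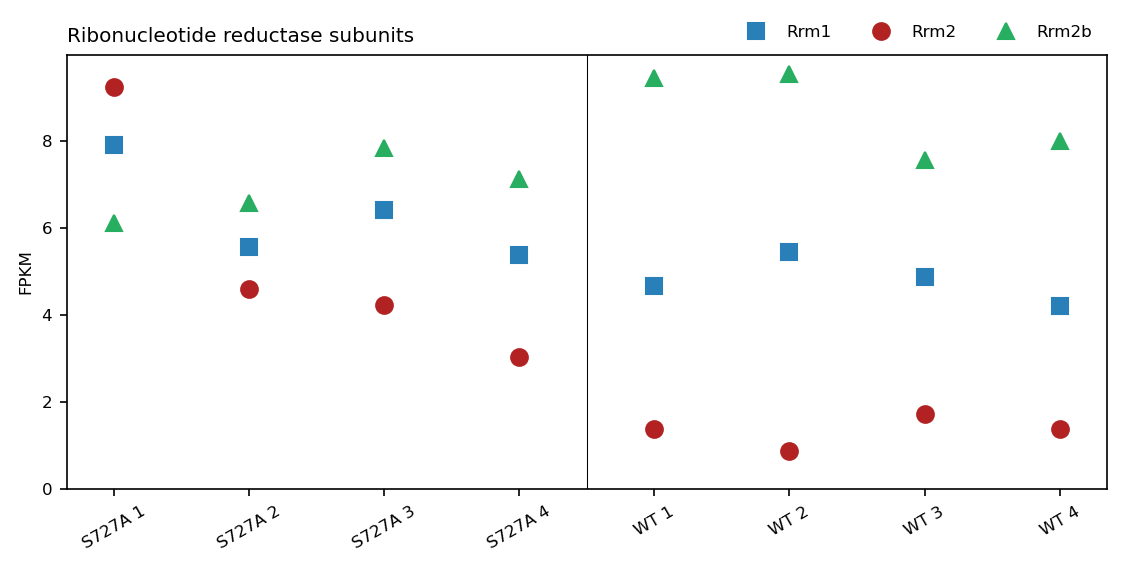
FPKM (y axis, from 0) of Rrm1, Rrm2 and Rrm2b in each library, S727A left of the line and WT right of it. Rrm2 (red circles) lies between 3.03 and 9.23 FPKM in S727A and between 0.88 and 1.73 FPKM in WT, while Rrm2b (green triangles) lies between 6.12 and 7.83 FPKM in S727A and between 7.55 and 9.54 FPKM in WT.

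Tyms (chromosome 5, 30038546 to 30073645), which methylates dUMP to give the thymidine nucleotide, showed no such separation. It was at 8.72, 8.34, 7.4 and 8.86 CPM in S727A hearts and 6.33, 6.65, 8.78 and 9.5 CPM in WT, so that its log2 fold change was 0.09 ± 0.16 (SE), and 0.00 without WT 1. WT 4 lay above all 4 S727A libraries and WT 3 above 3 of them, and S727A exceeded WT in 9 of 16 pairs of libraries. Tyms was the only one of the 10 genes whose deposited counts were not whole, so some of its reads were shared out among genes by a method not given in the sources used here, and its level is uncertain.

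By edgeR's quasi-likelihood test over all 12998 genes, none of the 10 reached an adjusted p under 0.05, which 0.0462% of tested genes reached as higher. At an unadjusted p under 0.05, 9 of the 10 were higher, against 8.97% of tested genes. DESeq2 placed 3 of 10 (Mcm2, Mcm5 and Rrm2) past 0.05 as higher, against 2.2% of its tested genes, and limma voom none. The authors' deposited table lists the same 3 at q under 0.05 as higher, where 1.38% of its genes with a q-value are. All 10 had a log2 fold change above 0, as had 49.4% of tested genes, and 5 of 10 had all S727A libraries above all WT libraries in CPM, as had 4.07% of tested genes. Their median log2 fold change was 0.47 and that of all tested genes 0.00. The genes were chosen on this comparison, and Cdc6 passed the filter through its S727A libraries, so nothing is read from these counts.

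How the 10 genes varied among libraries of 1 group was not part of that choice. S727A 1 was the highest S727A library for 8 of them and S727A 4 the lowest for 8, with Mcm4 and Tyms as the exceptions in both cases (S727A 4 was highest for these 2). WT 3 was the highest WT library for 6 (Mcm2, Mcm3, Mcm5, Mcm6, Mcm7 and Rrm2), and WT 2 the lowest for 5. After subtracting each group's mean log2 CPM, 33 of the 45 pairs of genes had a Pearson r above 0 over the 8 libraries, with a median of 0.63. By gene, the median r with the other 9 was 0.81 for Mcm2, 0.76 for Mcm3, 0.71 for Mcm7, 0.69 for Mcm6, 0.69 for Rrm2, 0.68 for Mcm5, 0.64 for Cdc6 and 0.54 for Rrm1, but -0.08 for Tyms and -0.29 for Mcm4. Thus, with both groups pooled, 8 genes tended to vary together, and Mcm4 and Tyms did not follow them. Among WT libraries alone the 8 were less alike. Rrm1 was highest in WT 2 (21.5 CPM), where Rrm2 was lowest (1.87 CPM), and Cdc6 was highest in WT 1 (1.15 CPM). Pairs of other genes were not summarised for comparison, and genes of other roles, given below, followed the mean of the 10 closely. These libraries share their normalisation, and the r values are descriptions.

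The mean log2 CPM of the 10 genes was 3.88, 3.40, 3.62 and 3.27 in S727A 1 to 4 and 2.89, 2.71, 3.08 and 2.82 in WT 1 to 4. Among 12639 other genes with a mean log2 CPM of at least 0 in both groups, the 5 whose pattern over the 8 libraries was most like this mean were Rpl3 (Pearson r 0.989), Trub2 (0.986), Bub1b (0.981), Tacc3 (0.977) and Tmem11 (0.975). Rpl3 encodes a protein of the large ribosomal subunit, and Bub1b and Tacc3 act on the mitotic spindle. With group means subtracted, the 5 were Rpl3 (0.985), Trub2 (0.971), Tacc3 (0.969), Ufc1 (0.966) and Mrpl16 (0.966). Rpl3 averaged 272 ± 51.7 CPM in S727A hearts, against 188 ± 21.5 CPM in WT hearts (SD, n = 4 each), and its log2 fold change of 0.53 ± 0.13 (SE) did not pass (edgeR adjusted p = 0.119). It passed in DESeq2 (adjusted p = 0.0118), and in edgeR without S727A 4 (0.0297) or WT 3 (0.0492). Trub2, a pseudouridine synthase gene, had one of 0.23 ± 0.09, Tmem11, a gene of the mitochondrial membrane, 0.27 ± 0.08, Ufc1, a gene of the UFM1 pathway, 0.30 ± 0.10, and the mitochondrial ribosome gene Mrpl16 0.28 ± 0.11 (SE).

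The rest of the pathway was read from lists set by the genes' known roles, though with earlier results of these data in view. They held 146 other genes, all in the table, of which 143 were tested (Orc1, Mcm10 and Ticrr were too scarce). By edgeR none passed in either direction, against 0.0462% of tested genes as higher and 0.1% as lower. At an unadjusted p under 0.05, 39 were higher and 3 lower, where 8.97% and 8.79% of tested genes are. DESeq2 called 18 higher and 0 lower, where 2.2% and 1.91% of its tested genes were. The authors' deposited table has 16 of the 146 at q under 0.05, all higher, where 1.38% of its genes with a q-value are higher. By limma voom 0 were called. In CPM, 16 of the 143 had every S727A library above every WT library, and 3 had every one below, where 4.07% and 4.36% of tested genes are. Their median log2 fold change was 0.21, with 113 of 143 above 0 (79.0%), where 49.4% of tested genes are.

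Origin licensing partners of Cdc6 had a median log2 fold change of 0.10 over 8 tested genes, 6 of them above 0. The exception in size was Cdt1, given above. Orc5, a subunit of the origin recognition complex, had -0.31 ± 0.15 (SE, edgeR adjusted p = 0.29), and Gmnn, which encodes geminin, the inhibitor of Cdt1, averaged 17.9 ± 2.13 CPM in S727A hearts, against 19.5 ± 3.33 CPM in WT hearts (SD, n = 4 each). Factors that activate the loaded ring had a median of 0.20, with 9 of 11 above 0. Cdc7, a kinase that phosphorylates MCM proteins, had 0.75 ± 0.32 (SE, edgeR adjusted p = 0.252), and Gins2 0.67 ± 0.34 (0.334). Cdc45, which joins the ring to make the active helicase, averaged 4.45 ± 0.93 CPM in S727A hearts, against 3.56 ± 0.634 CPM in WT hearts (SD, n = 4 each), which gave 0.32 ± 0.21 (SE).

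Genes of the replication fork had a median of 0.21, with 24 of 31 above 0. Pcna, the sliding clamp, was at 49.1, 42.6, 42.4 and 39.6 CPM in S727A 1 to 4 and 34.0, 32.9, 38.0 and 36.9 CPM in WT 1 to 4. The groups did not overlap, and the log2 fold change of 0.29 ± 0.09 (SE) did not pass (edgeR adjusted p = 0.161). Rfc5, of the clamp loader, had 0.94 ± 0.23 (SE, edgeR adjusted p = 0.115), and Rpa2, of the single-strand binding complex, 0.38 ± 0.12 (0.157), both without overlap. Rfc5 passed in DESeq2 (adjusted p = 0.0283) and in edgeR without S727A 4 (adjusted p = 0.0422).

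Other deoxynucleotide enzymes were evenly split, with 8 of 15 above 0 and a median of 0.03. Shmt1, which makes the folate that Tyms uses, lay between 19.3 and 20.9 CPM in the 4 S727A libraries and at 17.2, 9.74, 14.6 and 12.5 CPM in WT 1 to 4. Its S727A libraries were close together and all above WT, and the log2 fold change was 0.56 ± 0.15 (SE, edgeR adjusted p = 0.127). Tk1, the S-phase thymidine kinase, had 1.18 ± 0.37 with means of 2.85 ± 1.14 CPM in S727A hearts and 1.23 ± 0.545 CPM in WT hearts (SD, n = 4 each), and Dtymk, which phosphorylates dTMP, 0.41 ± 0.12 (SE), with adjusted p of 0.158 and 0.143 in edgeR. Samhd1, which destroys deoxynucleotides in resting cells, averaged 43.4 ± 7.86 CPM in S727A hearts, against 45.9 ± 2.22 CPM in WT hearts (SD, n = 4 each). Ribonucleotide synthesis genes had a median of -0.02, with 8 of 17 above 0. Prps2, which makes the sugar phosphate for both purines and pyrimidines, had -0.45 ± 0.13 (SE, edgeR adjusted p = 0.136). Every S727A library lay below every WT library for Prps2. Ctps, which makes CTP, had 0.24 ± 0.10 (SE, edgeR adjusted p = 0.242), with overlap.

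E2F factors, pocket proteins and S-phase cyclins had a median of 0.20, with 22 of 24 above 0. E2f1, an activator of the MCM genes, was at 9.88, 5.88, 8.56 and 3.65 CPM in S727A 1 to 4 and 1.05, 1.69, 4.61 and 2.26 CPM in WT 1 to 4. S727A 4 lay below WT 3, and the log2 fold change was 1.5 ± 0.43 (SE, edgeR adjusted p = 0.146, 0.0447 without S727A 4 and 0.0292 without WT 3). Ccna2, the cyclin of S and G2 phase, had 1.71 ± 0.47 (edgeR adjusted p = 0.137), while the G1/S cyclins Ccne1 (0.53 ± 0.26) and Ccne2 (0.31 ± 0.20, SE) had smaller folds and adjusted p of 0.314 and 0.427 in edgeR. Cdkn1a, the p53 target that encodes the CDK inhibitor p21, was at 57.4, 75.5, 82.7 and 20.8 CPM in S727A hearts and 15.1, 14.5, 38.3 and 35.6 CPM in WT, with S727A 4 below WT 3 and WT 4 (1.18 ± 0.52 SE, edgeR adjusted p = 0.297). All 10 genes of replication-coupled chromatin had a fold above 0, with a median of 0.44, among them Uhrf1 (1.10 ± 0.27) and Chaf1a (0.85 ± 0.28, SE), with adjusted p of 0.116 and 0.165 in edgeR.

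Mitosis genes had the largest median of these lists, 1.21, with 26 of 27 above 0 (Cenpf, at -0.30, was the exception). Some were scarce in WT hearts: Ccnb1 averaged 0.48 CPM there, Plk1 0.588 and Ccnb2 0.721, against 2.87, 2.03 and 2.96 CPM in S727A hearts. Genes this scarce in WT can pass the filter through their S727A libraries, as Cdc6 did, which limits what the median shows. Cdk1, the mitotic kinase, was at 6.93, 5.56, 5.8 and 2.8 CPM in S727A 1 to 4 and 0.767, 1.03, 2.78 and 0.935 CPM in WT 1 to 4, where S727A 4 and WT 3 nearly met. Its log2 fold change was 1.89 ± 0.41 and that of the kinesin gene Kif20a 1.56 ± 0.35 (SE, edgeR adjusted p = 0.0992 for both). The proliferation marker Mki67 was at 26.0, 19.9, 16.8 and 7.92 CPM in S727A hearts and 4.12, 5.24, 15.6 and 4.83 CPM in WT (1.22 ± 0.51 SE, edgeR adjusted p = 0.272). Top2a, which untangles replicated DNA, had 1.49 ± 0.40 (SE, edgeR adjusted p = 0.133), and for both of them S727A 4 lay below WT 3. Bub1b had 1.01 ± 0.23 and Tacc3 0.92 ± 0.27 (SE, edgeR adjusted p of 0.104 and 0.136). The median of the 10 replication and nucleotide genes lay below that of the mitosis genes, and this difference was not tested.

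**Figure D4:**
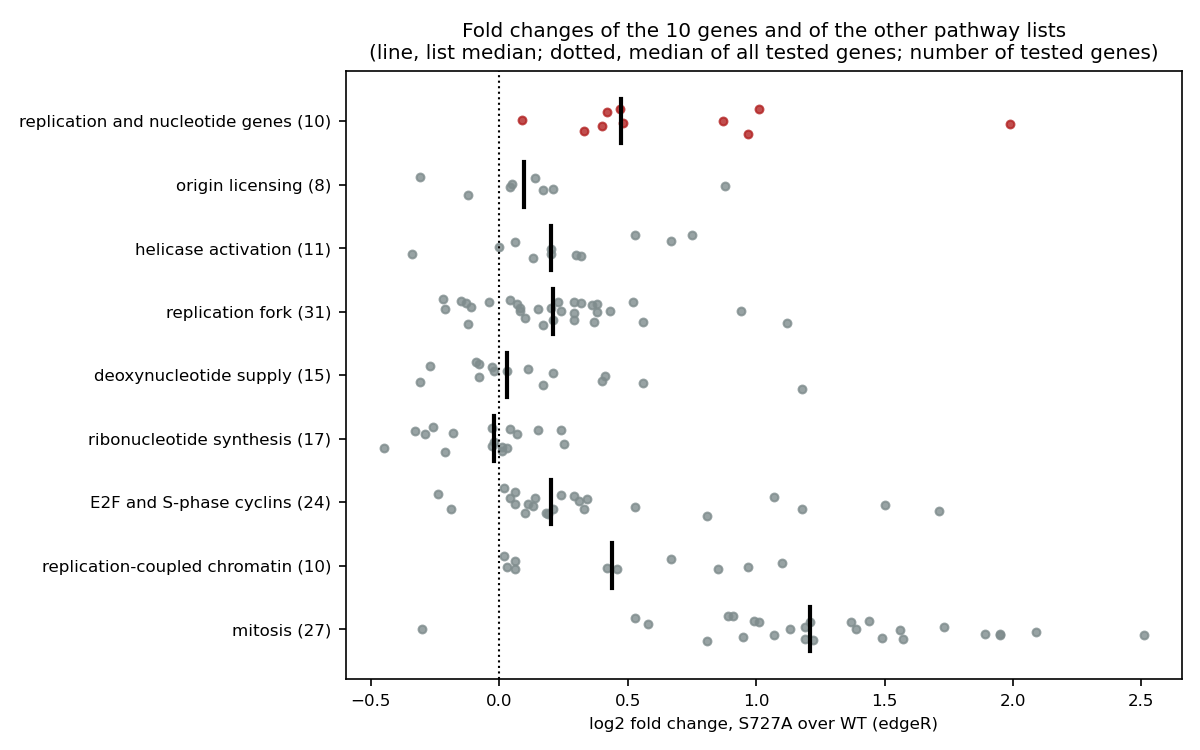
Log2 fold change of S727A over WT (x axis, edgeR) of each tested gene in each list, with the list median as a black line and the median of all tested genes as a dotted line; the 10 replication and nucleotide genes are red in the top row. Their median is 0.47, that of mitosis genes 1.21, and those of ribonucleotide synthesis and deoxynucleotide supply genes lie at -0.02 and 0.03.

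The E2F word was also counted in the windows of these lists. It occurred in 4 of 8 origin licensing genes, 2 of 8 helicase activation genes, 8 of 26 fork genes, 8 of 19 E2F and cyclin genes and 3 of 9 chromatin genes that have a window. It occurred in 0 of 13 deoxynucleotide genes, 2 of 15 ribonucleotide synthesis genes and 1 of 23 mitosis genes. Of all tested genes that have a window, 4.6% hold it. TTTGAA occurred in 18 of 23 mitosis genes, 4 of 8 helicase activation genes, 6 of 19 E2F and cyclin genes and 3 of 9 chromatin genes, against 14.2% of tested genes. It occurred in 0 of 8 origin licensing, 3 of 26 fork, 2 of 13 deoxynucleotide and 2 of 15 ribonucleotide synthesis genes. No test was made of these counts.

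Markers of other cells also differed between libraries, some of them along the groups. The 7 activated fibroblast markers (Postn, Cthrc1, Comp, Meox1, Cilp, Ltbp2 and Thbs4) all had a fold above 0 and summed to 928, 1060, 1210 and 601 CPM in S727A 1 to 4 and 292, 357, 1050 and 432 CPM in WT 1 to 4. WT 3, the WT library with the highest mean of the 10 genes, and S727A 4, the S727A library with the lowest, stood out in this list too: WT 3 lay above S727A 1 and S727A 4, and S727A 4 below WT 3 but above the other WT libraries. General fibroblast markers (7 of 7 above 0) summed to 2270 to 2660 CPM in S727A and 1490 to 2490 CPM in WT. Macrophage markers had the opposite sign, with 8 of 8 below 0 and sums of 213 to 286 CPM in S727A and 285 to 487 CPM in WT, as did smooth muscle and pericyte markers, with 8 of 8 below 0 and 1110 to 1380 CPM in S727A and 1430 to 2080 CPM in WT. Endothelial markers were level at 919 to 1030 CPM in S727A and 936 to 1020 CPM in WT, with 4 of 7 above 0.

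Red-cell markers, which residual blood brings in, had 5 of 5 tested markers above 0 and summed to 3400, 1580, 2210 and 1880 CPM in S727A 1 to 4 and 2080, 1250, 1550 and 2300 CPM in WT 1 to 4. S727A 1, the highest library for 8 of the 10 genes, was also the highest in red-cell markers. T cell markers were near 0, with 2.41 to 3.96 CPM in S727A and 2.43 to 3.74 CPM in WT for 7 markers, of which Cd3e, Cd3d and Cd3g were at 0 in some libraries. Thymus markers summed to 2.59 to 3.26 CPM in S727A and 2.1 to 3.88 CPM in WT, and recruited monocyte and neutrophil markers to 6.42 to 15 CPM in S727A and 5.06 to 11.9 CPM in WT. B and plasma cell markers summed to 9.09 to 18.9 CPM in S727A and 3.45 to 5.24 CPM in WT, of which Jchain passed the test as higher, while the other 2 of its 3 tested markers had a fold below 0. Atrial markers summed to 157 to 246 CPM in S727A and 212 to 392 CPM in WT (6 of 6 below 0), Schwann cell markers to 38.2 to 43.4 CPM in S727A and 42.0 to 52.9 CPM in WT (4 of 4 below 0), and adipocyte markers to 2.22 to 11.8 CPM in S727A and 3.22 to 48.4 CPM in WT. The part of these cells in the levels of the 10 genes was not tested.

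**Figure D5:**
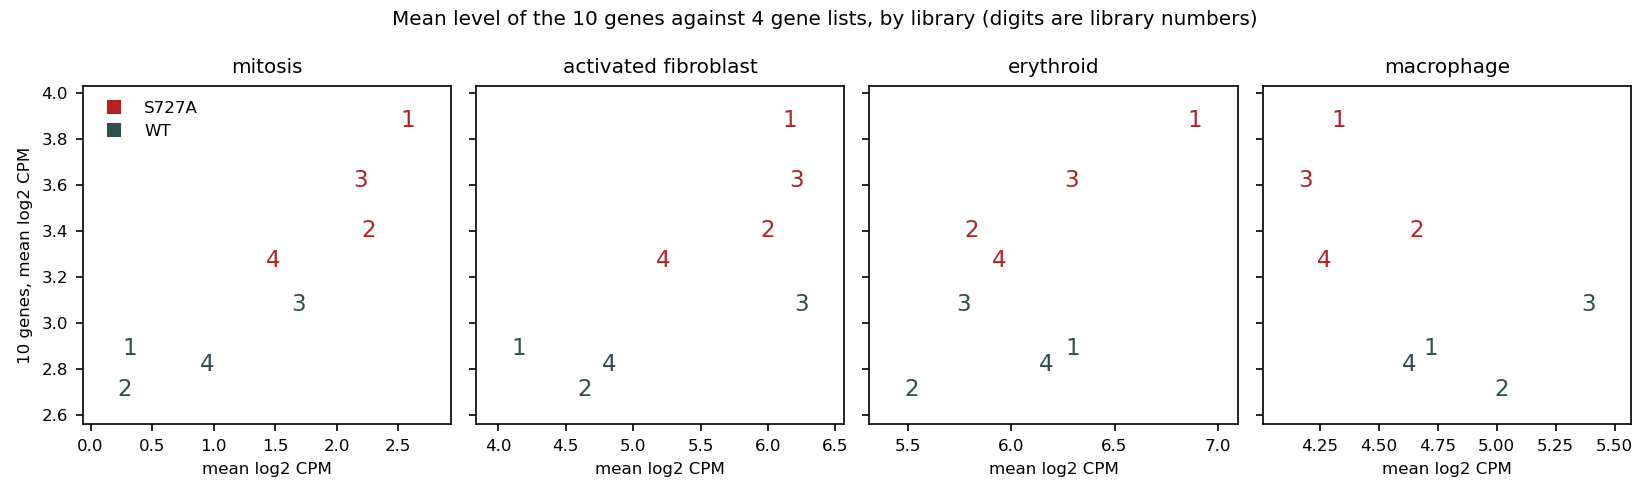
Mean log2 CPM of the 10 genes (y axis) against the mean log2 CPM of mitosis genes, activated fibroblast, erythroid and macrophage markers (x axes); digits are library numbers, S727A in red and WT in dark. S727A 1 is at 3.88 and WT 2 at 2.71 on the y axis, WT 3 is the highest library on the x axis of the activated fibroblast panel (6.25), and S727A 1 is the highest in the erythroid panel (6.89).

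The calls depended on single libraries. The 10 genes were chosen on this comparison, so nothing is read from their calls here. S727A 4 was also the lowest S727A library for 8 of the 10, and WT 3 the highest WT library for 6. Without S727A 4, 3 of the 10 genes (Mcm2, Mcm5 and Rrm2) were past an edgeR adjusted p of 0.05, against 2.27% of tested genes as higher, and so were 16 of the 143 other pathway genes. None of the 10 and no pathway gene was lower, where 2.44% of tested genes were. Without WT 3, 2 of the 10 (Mcm5 and Rrm2) passed as higher, against 1.25%, with 16 other pathway genes, and none as lower, against 0.847%. Without S727A 4 and WT 4 together, the libraries lacking Y-linked reads, Rrm2 alone passed as higher, against 0.824%, with 5 other pathway genes (Ccnb1, Ccnb2, Cdk1, Plk1 and Anln), and none as lower, against 1.04%. Cyclin B (Ccnb1 and Ccnb2) is the partner of Cdk1 in mitosis. Ccnb1, Ccnb2 and Plk1 were scarce in WT hearts, with the limit given above. Of the genes named above as not passing in edgeR, Ccna2, Uhrf1, Top2a, Cdk1, Kif20a and Bub1b also passed in DESeq2 (adjusted p of 0.00143 to 0.0182) and in edgeR without S727A 4 (0.0189 to 0.043). All of these but Ccna2 passed in edgeR without WT 3 as well (0.011 to 0.0367), as did Mki67 (0.0473), while E2f1 (0.0146), Shmt1 (0.0304) and Tacc3 (0.0485) passed in DESeq2. Over each library left out in turn, the log2 fold change ran from 0.90 to 1.23 for Mcm5, 0.68 to 1.00 for Mcm2, 0.84 to 1.11 for Cdc6, 0.26 to 0.42 for Mcm4, 0.23 to 0.51 for Mcm6 and 0.28 to 0.50 for Rrm1.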

How the data were processed

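Polyadenylated RNA of mouse hearts was sequenced as 8 stranded libraries on DNBSEQ, with RNA extracted by Trizol, per the labels' protocols. FastQC, HISAT2, Bowtie2 and the mouse build GRCm38.p6 appear in the submitters' processing notes, with no versions. How reads were counted is not stated there. The deposited table gives each gene an estimated count in each library (6.06% to 7.62% of these are not whole, tolerance 1e-06) and the FPKM that the authors computed. Its headers also name a log2 ratio, a p-value and a q-value of S727A over WT from the authors' own test, whose tool they do not name.

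Estimated counts were rounded and filtered with filterByExpr (minimum count 10, minimum total 15). The comparison used edgeR 4.0.16 in R 4.3.3: TMM, robust dispersions and the two-sided quasi-likelihood test (legacy mode), with genotype as the only term, Benjamini-Hochberg adjustment over all 12998 genes, threshold 0.05. CPM were scaled by TMM, with a prior count of 2 added for log2 CPM. Alternatives were DESeq2 1.42.0, limma 3.58.1 (voom, and trend on log2 of FPKM plus 1 or 0.1), other normalization, filters and quasi-likelihood mode, the replicate number as a block, and libraries left out. The main edgeR fit, DESeq2 and limma voom were tested on simulated data, and the other alternatives were not. No library repeated another (chi-square per degree of freedom 9.13 to 38.99). The genes followed, the lists and the tests were chosen with earlier results of these data known. Outside the 10 genes, fixed names, up to 4 passing genes per list or else the 2 of smallest p, and 5 genes per likeness ranking were named, and Cenpf, Jchain and the genes called without a library were named after their values were seen. Promoter windows are RefSeq's on GRCm38.p6, matched by gene ID.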

Additional observations from a re-analysis of the deposited data

How the results depend on the processing

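The median log2 fold change of the 10 genes was 0.47 and stayed between 0.34 (limma trend on FPKM with a pseudocount of 1) and 0.59 (without S727A 4 and WT 4, which lack Y-linked reads) over all alternatives, and between 0.38 and 0.57 over single libraries left out. On log2 of FPKM plus 1, which understates low genes, Rrm2 was at 1.34 and Cdc6 at 0.27. Calls over all genes depended on the settings: 19 in edgeR, against 534 in DESeq2, 6 in limma voom, 6 and 4 in limma trend on FPKM with pseudocounts of 1 and 0.1, 242 without S727A 4 and WT 4 together and 0 without WT 1 and WT 4, which hold airway transcripts. Leaving out single libraries gave 0 to 617 calls, 617 without S727A 4; the count was 275 without WT 3, 8 without S727A 2, 2 without WT 4, and 0 when S727A 1, S727A 3 or WT 1 was left out. Other pathway genes called numbered 0 in edgeR, 18 in DESeq2, 5 without S727A 4 and WT 4, and 0 to 16 over single libraries left out. The cause was not tested. With the replicate number as a block 2 genes were called and the median was 0.46. With group means subtracted, same-numbered libraries had r of -0.1 to 0.07, and differently numbered ones -0.25 to 0.18. So few values cannot show whether the numbers pair libraries, and both libraries lacking Y-linked reads are number 4. The 45 genes refitted under the alternatives (the 10 genes and those named by rule) kept the sign of their fold change, except Tyms, at 0.00 without WT 1; genes named after their values were seen were not followed. Low counts limit Cdc6 most, with 8 to 28 reads per library.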
